A study of Homo sapiens with 6 samples.

Results

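The miR-200 family hairpins are 4 of the 147 microRNA (miRNA) hairpins in the table: hsa-mir-200a, hsa-mir-200b, hsa-mir-200c and hsa-mir-429. They were chosen by name, with earlier results of these data known, and all 4 had a score with both DICER constructs. The cells were HCT116 DICER-KO, a human colorectal carcinoma line whose DICER gene was knocked out, so both groups lack the endogenous enzyme. One group was transfected with the plasmid pXG-DICER-WT, which restores full-length DICER (3 samples), and the other with pXG-DICER-delHelicase, which restores DICER without its helicase domain (3 samples). RNA was taken 48 h after transfection, small RNAs were isolated from a gel, and the libraries were sequenced. The deposited "global variation" is a single score per hairpin and construct. The labels and the header state neither its formula nor how the 3 samples of a group entered it, and the depth of the libraries is unknown. The spread between samples can therefore not be computed, and the differences below are given without a replicate check or a test.

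DROSHA trims a primary transcript to a precursor hairpin, and DICER then cuts that precursor next to its terminal loop. For a miRNA from the 3′ arm (3p), the DICER cut sets the 5′ end and with it the seed, the bases by which a miRNA recognises its targets. The miR-200 family is known for keeping epithelial cells epithelial: its members repress ZEB1 and ZEB2, transcription factors that silence E-cadherin during the epithelial-mesenchymal transition. A shift of the 5′ end would change the seed, which is why the precision of the DICER cut matters for this family.

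The label holds at the level of sequence. RefSeq (GRCh38.p14) has a mature entry for all 4 miRNAs, shown here because the seed (bases 2 to 8, in capitals) divides the family into its seed groups.
hsa-miR-200b-3p: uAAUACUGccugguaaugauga
hsa-miR-200c-3p: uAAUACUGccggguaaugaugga
hsa-miR-429: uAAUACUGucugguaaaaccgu
hsa-miR-200a-3p: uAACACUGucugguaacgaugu

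The first group, miR-200b, miR-200c and miR-429, carries the seed AAUACUG, and miR-200a carries AACACUG. Counted from the 5′ end of the miRNA, the seeds of miR-200a and miR-200b differ by C4U. Within the first group miR-200b and miR-200c are the closest pair, with U11G and A22G as their differences over 22 positions. miR-429 differs from miR-200b at 6 positions, all of them outside the seed (C9U, U17A, G18A, A19C, U20C and A22U). In the RefSeq table the seed AAUACUG belongs to these 3 miRNAs, and AACACUG to miR-200a and miR-141. The hairpin mir-141 is not among the 147 hairpins scored and so was not analysed here. No other hairpin of the table with a mature entry has either seed.

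The members lie at 2 loci. GENCODE 29 (GRCh38) places mir-200b at chr1:1167104-1167198, mir-200a at chr1:1167863-1167952 and mir-429 at chr1:1169005-1169087, all on the plus strand, within 1984 bases. No other GENCODE 29 gene overlaps them on that strand, while RefSeq places all 3 inside the span of the long non-coding RNA gene MIR200BHG. The fourth, mir-200c, lies at chr12:6963699-6963766 on the plus strand, inside the lincRNA gene MIR200CHG (intronic). The mature 3p sequences span chr1:1167160-1167181 (miR-200b-3p), chr1:1167916-1167937 (miR-200a-3p), chr1:1169055-1169076 (miR-429) and chr12:6963742-6963764 (miR-200c-3p).

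The deposited hairpins show where the cut falls. Each is written 5′ to 3′ with the miRNA in capitals, so that the DICER cut on the 3′ strand is the step from lower case to the first capital. The 3 with a RefSeq hairpin entry (mir-200b, mir-200c and mir-429) extend it by 10 bases on each side.
hsa-mir-200a: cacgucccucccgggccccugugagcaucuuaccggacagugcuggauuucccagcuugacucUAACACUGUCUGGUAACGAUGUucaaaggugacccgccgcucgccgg
hsa-mir-200b: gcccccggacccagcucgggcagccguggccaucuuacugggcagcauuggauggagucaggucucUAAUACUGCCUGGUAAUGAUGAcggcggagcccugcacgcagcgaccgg
hsa-mir-200c: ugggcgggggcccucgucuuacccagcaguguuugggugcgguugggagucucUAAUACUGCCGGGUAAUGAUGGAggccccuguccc
hsa-mir-429: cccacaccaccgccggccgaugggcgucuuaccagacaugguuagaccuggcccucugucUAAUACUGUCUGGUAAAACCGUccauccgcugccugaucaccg

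Without the helicase domain the family split: the score was higher than with full-length DICER for mir-200a, mir-200b and mir-200c and lower for mir-429. The score of mir-200b, the member with the highest score under either construct, was 0.0687 under the full-length enzyme and 0.224 under DICER-delHelicase, a ratio of 3.27. The score of mir-200a went from 0.00966, the lowest DICER-WT score of the family, to 0.0351, a ratio of 3.63. That of mir-200c was 0.0183 and 0.0414, a ratio of 2.27. The score of mir-429 ran the other way, from 0.0622 under DICER-WT down to 0.0147 under DICER-delHelicase, so that the DICER-WT score was the higher one by a ratio of 4.22.

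**Figure D1:**
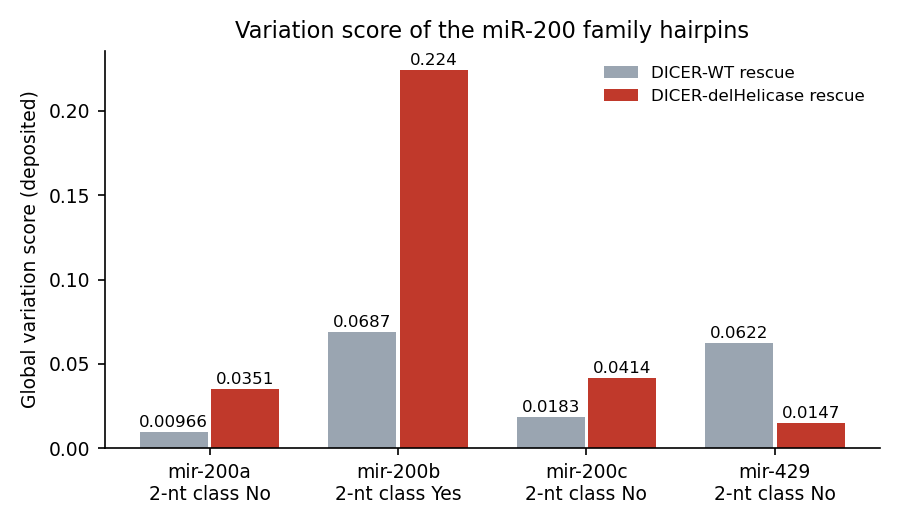
Deposited global variation score (vertical axis, no unit) of each miR-200 family hairpin with DICER-WT (grey) and DICER-delHelicase (red); each bar is 1 deposited value, with no error available. The red bar is taller for mir-200a, mir-200b and mir-200c and shorter for mir-429 (0.0147 against 0.0622).

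Higher scores without the helicase were the common direction in the table, lower ones were not. Of all 147 hairpins, 106 (72.1%) scored higher with DICER-delHelicase and 38 (25.9%) lower, against 3 and 1 of the 4 members. With a ratio of 2 or more as the rule, which needs both scores above 0 and leaves 139 hairpins, 47.5% were higher and 8.63% were lower. By that rule mir-200a, mir-200b and mir-200c were higher and mir-429 was lower. The median score ratio was 2.72 over the 4 members and 1.96 over the 139 hairpins. As a difference of scores, the median change was 0.0243 for the members and 0.0261 for all hairpins.

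The members took different places in the order of all hairpins. By score ratio, mir-200a was number 31 from the top of 139, mir-200b number 42 and mir-200c number 57, all in the upper part. mir-429 was number 4 from the bottom. By difference of scores, over 147 hairpins, mir-200b was number 38 from the top, mir-200a number 75 and mir-200c number 76. In that order mir-200a and mir-200c were near the middle, and mir-429 was number 18 from the bottom. The hairpins with a still lower ratio were mir-590 (0.0485 and 0.00383, DICER-WT first), mir-106b (0.177 and 0.0215) and mir-3928 (0.513 and 0.108). By ratio, the next above mir-429 was mir-324 (0.698 and 0.185). Hairpins whose score fell to 0 with DICER-delHelicase have no ratio and no place in this order. The main DICER-WT 5′ end of mir-324 is listed at offset 3. For mir-429, as for the other 3 members, it is listed at offset 0, the value of 132 of the 139 hairpins.

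**Figure D2:**
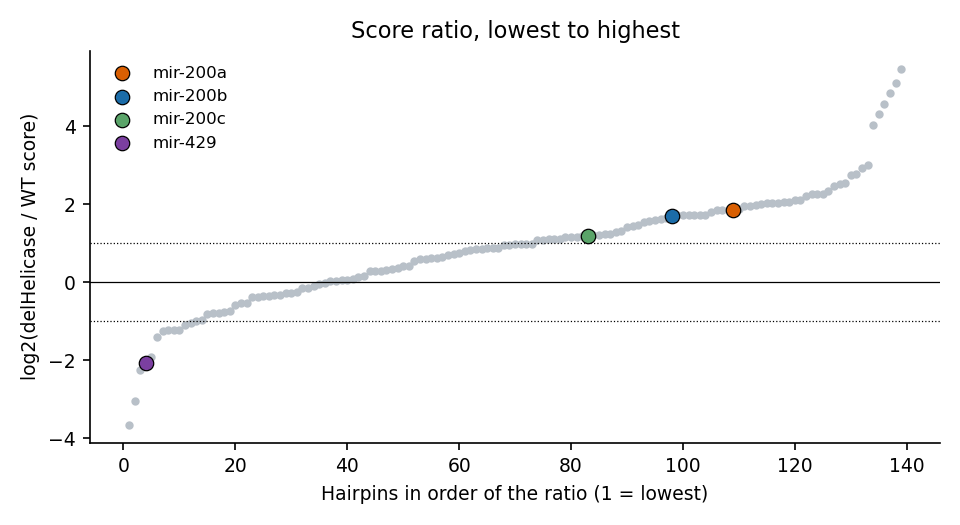
The 139 hairpins with both scores above 0, in order of log2(delHelicase score / WT score), from lowest to highest; coloured points are the miR-200 family and dotted lines mark a ratio of 2 in either direction. mir-429 is number 4 from the left at -2.08, and mir-200c, mir-200b and mir-200a lie at 1.18, 1.71 and 1.86.

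Under full-length DICER the family fell into a higher and a lower pair. The scores of mir-200b and mir-429 (0.0687 and 0.0622) differed 1.10-fold, and both were just below the median of all hairpins, 0.0804. Those of mir-200a and mir-200c were lower, with 21.1% and 25.9% of all hairpins below them. Without the helicase domain the pair of mir-200b and mir-429 came apart. mir-200b then had the family's highest score (63.3% of hairpins below it) and mir-429 the lowest (19.7% below it). The median of all hairpins with DICER-delHelicase was 0.146. Across the family the highest score exceeded the lowest 7.11-fold with DICER-WT and 15.2-fold with DICER-delHelicase.

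**Figure D3:**
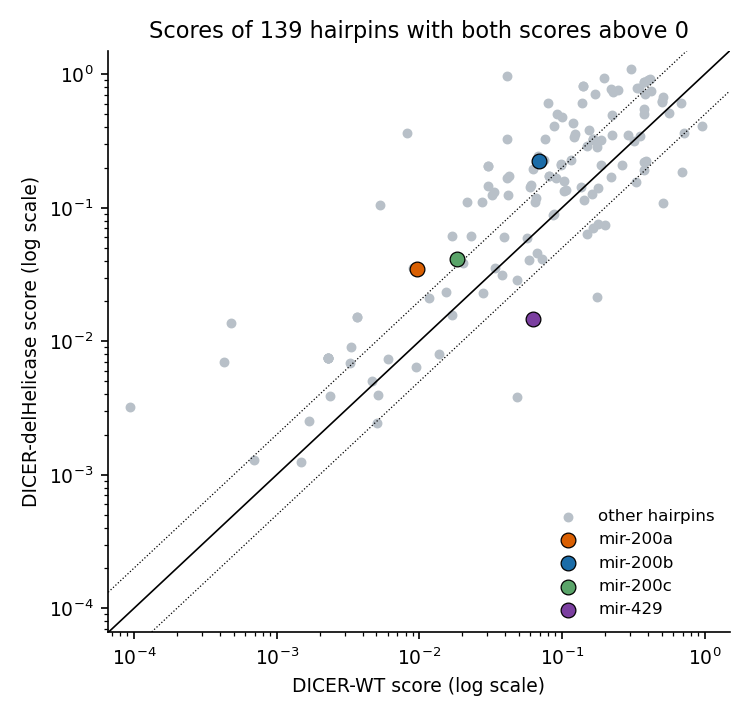
DICER-WT score (horizontal, log scale) against DICER-delHelicase score (vertical, log scale) for the 139 hairpins with both scores above 0; the solid line marks equal scores and the dotted lines a ratio of 2. mir-200b and mir-429 start from similar DICER-WT scores (0.0687 and 0.0622) and lie on opposite sides of the line.

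The split did not run between the seed groups. miR-200a, alone with its seed among the members, had a ratio of 3.63, while the 3 hairpins of the AAUACUG group had 3.27 (mir-200b), 2.27 (mir-200c) and 0.237 (mir-429). The opposite directions thus stood inside 1 seed group. Neither did it follow the locus: of the 3 hairpins of the chromosome 1 cluster, mir-200a and mir-200b were higher and mir-429 was lower, while mir-200c on chromosome 12 was higher. The hairpins with the most similar mature sequences, mir-200b and mir-200c, moved in the same direction from different levels: the score of mir-200b was 3.76-fold that of mir-200c with DICER-WT and 5.42-fold with DICER-delHelicase. Their hairpins share an exact run of 15 bases, the longest of any pair in the family. The labels do not say how the mapping treated such shared stretches.

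Each hairpin also has a Yes or No class headed 2-nt, taken from the DICER-WT products. mir-200b is the only member with Yes. The header does not define the class. To see what it tracks, the deposited hairpins were folded with RNAfold and the base pairs between the DICER cut and the first unpaired base on its loop side were counted, on either strand. Of the 136 hairpins with a RefSeq mature entry, 135 could be counted; in mir-548o the fold does not place the cut on the 3′ side of a stem. Exactly 2 such stacked pairs were found in 71 hairpins, and 67 of these were in class Yes. The other 3 of the 70 Yes hairpins were mir-7706 with 0 pairs, mir-615 with 1 and mir-1180 with 3, named after their counts were seen. Among the 65 counted No hairpins, 4 had exactly 2 pairs and 26 had 3. The class therefore matched a cut 2 base pairs from a loop or bulge in most hairpins, which is a count over predicted structures and not the authors' definition.

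All 4 members followed that count. In mir-200b the cut lay 2 pairs from a bulge of 2 unpaired bases on the 5′ strand. Beyond the bulge came 2 more pairs and a terminal loop of 6 bases. In mir-200c it lay 3 pairs from a bulge of 1 base on the 5′ strand, followed by 2 pairs and a terminal loop of 8 bases, and the first base of the miRNA was itself unpaired. In mir-429 it lay 3 pairs from the terminal loop of 10 bases, with no bulge in between. The structure of mir-200a differed most from the rest: the cut fell inside an unpaired stretch, 7 bases before the miRNA and the first 4 of the miRNA, and so had 0 stacked pairs.

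**Figure D4:**
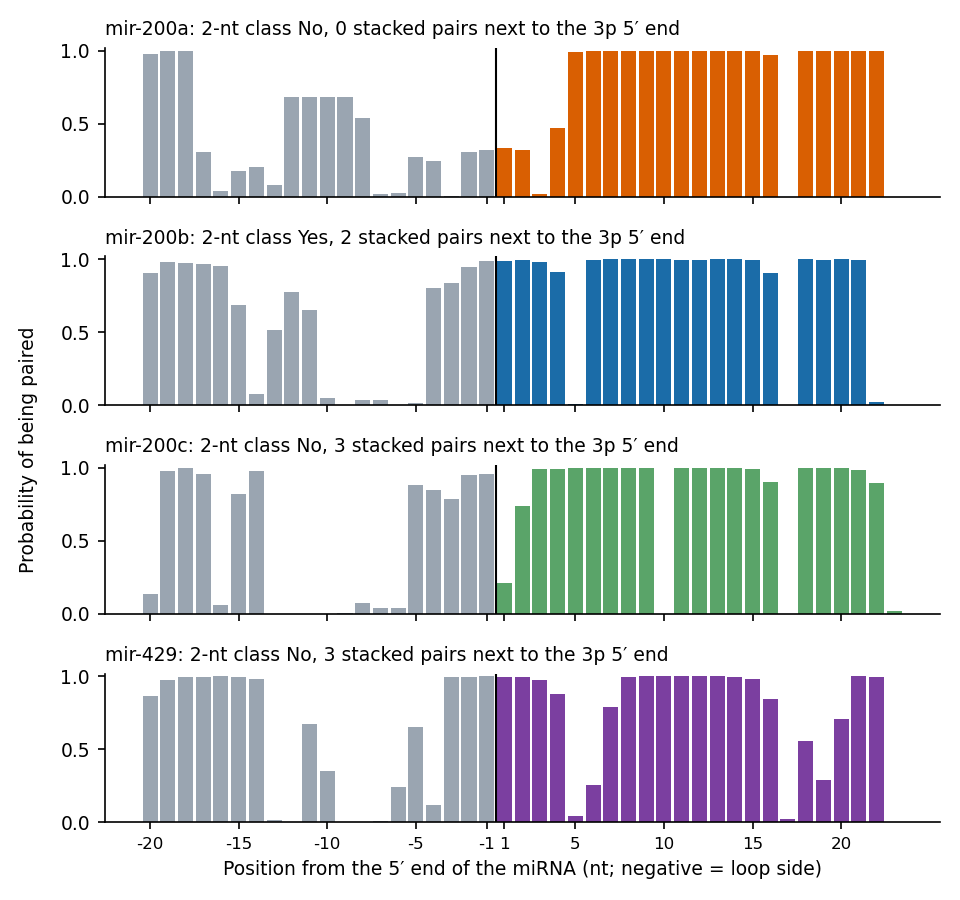
Predicted probability of being paired (vertical, 0 to 1) at each position around the 5′ end of the miRNA (vertical line) in the 4 hairpins; grey bars are the bases before the miRNA, coloured bars the miRNA. The 3 bases on each side of the line are paired with a probability of at least 0.976 in mir-429 and at most 0.334 in mir-200a.

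The pairing probabilities near the cut were lowest in mir-200a, except at the first base of the miRNA. Over the 3 bases on each side of the cut they ran from 0.976 to 1.00 in mir-429, the most firmly paired cut of the family, and from 0.840 to 0.993 in mir-200b. In mir-200c they ran from 0.208, at the first base of the miRNA, to 0.994. In mir-200a they ran from 0.000828 to 0.334, the latter at the first base of the miRNA and above the value of mir-200c there. The lowest DICER-WT score of the family, 0.00966, was that of mir-200a. The lowest DICER-delHelicase score, 0.0147, was that of mir-429, the most firmly paired at the cut. Whether pairing at the cut and the scores are related was not tested.

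Hairpins with the same number of stacked pairs as mir-429 had shares near those of the whole table. With 3 stacked pairs, as in mir-200c and mir-429, there were 27 hairpins, of which 18 (66.7%, against 72.1% of all hairpins) scored higher and 9 lower with DICER-delHelicase. By a ratio of 2 or more, 2 of the 27 (7.41%, against 8.63%) were lower: mir-429 itself and mir-590. The 27 include both members. Of the 14 among them whose 3 pairs led straight into the terminal loop, as in mir-429, 9 were higher and 5 lower, and mir-429 was the only 1 lower by that ratio. This subset was formed after the values of mir-429 had been seen. The hairpin mir-23a, with 3 pairs and a terminal loop of 10 bases as in mir-429, had scores of 0.0201 and 0.0388. With 2 stacked pairs, as in mir-200b, 50 of 71 hairpins (70.4%) were higher and 18 lower.

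Of the 15 hairpins with 0 stacked pairs, as in mir-200a, from 14 miRNAs, 14 (93.3%, against 72.1%) scored higher with DICER-delHelicase and 1 lower. By a ratio of 2 or more, 10 of the 15 were higher (against 47.5% of all hairpins) and 1 lower (6.67%, against 8.63%). The 15 include mir-200a. The median score of these 15 was 0.0274 under DICER-WT and 0.0611 under DICER-delHelicase, in each case above that of mir-200a. The medians for 2 stacked pairs were 0.0886 and 0.171, and for 3 stacked pairs 0.0862 and 0.132. Copies of a miRNA in these groups can share reads.

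**Figure D5:**
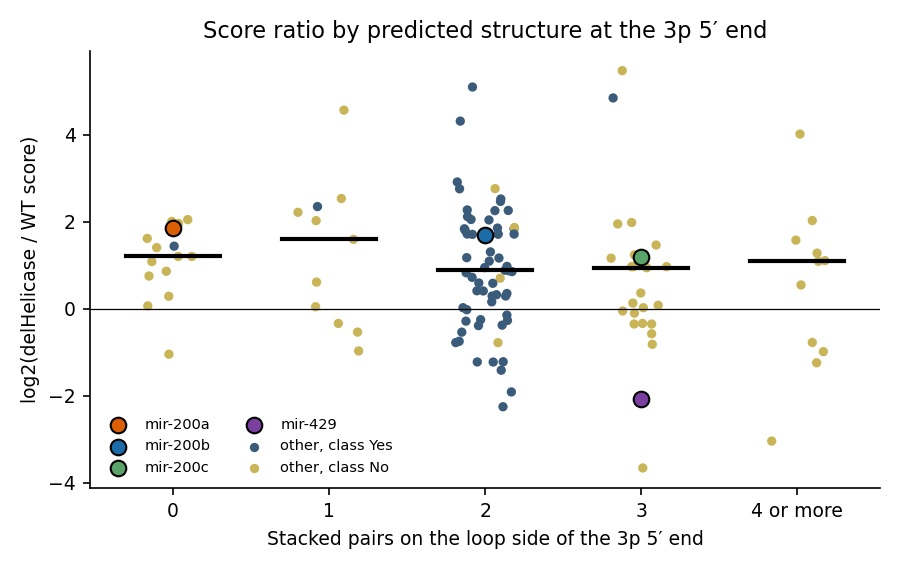
log2(delHelicase score / WT score) of each hairpin by its number of predicted stacked pairs on the loop side of the cut; black lines are medians of all hairpins in a column, small points other hairpins of class Yes (dark blue) or No (yellow). mir-200c (1.18) and mir-429 (-2.08) share the column of 3 pairs, whose median is 0.945.

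The members had other features in common. Position 17 of the miRNA, counted from its 5′ end, was unpaired in all 4 predicted structures and in 14 of the 136 hairpins (10.3%). The bases before the RefSeq start of the miRNA, counted without the listed offset, were UC in all 4, and in 18 of 136 hairpins (13.2%). All 4 miRNAs begin with U, as do those of 50 of 136 hairpins (36.8%). These features were picked because the members share them. The GC content of the hairpins was 59.2% in mir-429, 60.0% in mir-200a, 62.5% in mir-200c and 64.3% in mir-200b, against a median of 51.8% over 136 hairpins. The predicted folding energy was weakest in mir-429, -39.0 kcal/mol, then -48.0 in mir-200a, -49.7 in mir-200b and -55.0 in mir-200c, and the median was -44.7. These energies were not scaled by hairpin length, which was 103, 110, 115 and 88 bases in the same order. Terminal loops of the 4 ran from 5 to 10 bases, with mir-429 at the upper end, and the median of 136 hairpins was 6.

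Some hairpins came close to a member in both scores, measured as the distance in the plane of the log10 scores of the 2 constructs. The nearest to mir-200a was mir-99b (0.00900 and 0.0351, distance 0.0305), also with 0 stacked pairs and class No. The nearest to mir-200b were mir-340 (0.0679 and 0.243, distance 0.0355), of class Yes, and mir-95 (0.0749 and 0.227, distance 0.0378), of class No. The nearest to mir-200c was mir-23a (distance 0.0514). mir-429 had no close neighbour: the nearest, mir-501, lay at a distance of 0.311 with scores of 0.0483 and 0.0288, and the next, mir-502 (0.0380 and 0.0313) and mir-652 (0.0278 and 0.0231), farther still. The remaining hairpins among the 3 nearest were mir-107 and mir-3615 for mir-200a, mir-203b for mir-200b, and mir-22 and mir-197 for mir-200c.

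Other miRNAs of the epithelial-mesenchymal transition were set beside the family. They were listed by hairpin, whereas the table scores the 3p product; for mir-30a, mir-145, mir-9 and mir-21 the arm best known in this setting is the 5p one. Of 11 listed hairpins of miRNAs known mainly for restraining the transition, 5 were in the table, 2 higher and 3 lower with DICER-delHelicase, with a median change of -0.157. The copies mir-101-1 and mir-101-2 give the same miRNA, and with 1 mean value per miRNA 2 of 4 were higher and 2 lower, with a median change of 0.00772, so the sign of the median rests on counting the copies. Over all hairpins 72.1% were higher and 25.9% lower. The list includes mir-203a (0.377 and 0.551, DICER-WT first), an epidermal miRNA, mir-30a (0.420 and 0.746), mir-145 (0.714 and 0.361) and mir-101-1 (0.385 and 0.225), whose miRNA represses EZH2. None of the 5 reached a ratio of 2 in either direction. Their DICER-WT scores were all above the highest of the miR-200 family, 0.0687. The main DICER-WT 5′ end is listed at offset 2 for mir-145 and at offset 1 for mir-203a, against offset 0 for the 4 members. Offset 0 is the usual value, listed for 132 of the 139 hairpins with both scores above 0.

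Of 11 listed hairpins of miRNAs known mainly for promoting the transition, 9 were in the table, from 6 miRNAs. All 9 scored higher with DICER-delHelicase, where 72.1% of all hairpins did, and 3 of the 9 by a ratio of 2 or more, against 47.5%. The largest changes were those of mir-103a-2 (0.0304 and 0.207) and mir-103a-1 (0.0304 and 0.206), whose miRNA is known to repress DICER1. Counted once per miRNA, 6 of 6 were higher, with a median change of 0.110. The copies mir-9-1 and mir-9-2 both had 0.166 and 0.325. Copies of a miRNA are not independent, so these counts describe the table only.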

How the data were processed

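Small RNA was sequenced from 6 samples of HCT116 DICER-KO cells, 3 per DICER construct. Cutadapt, Bowtie2, bedtools and GRCh38 are named per the submitters' processing notes, with no version or setting. The authors deposited a score per hairpin and construct (294 lines, 147 hairpins, 127 miRNAs), whose formula is not stated; per the file headers the other columns are the major 5′ end with DICER-WT, read as an offset in bases, and the 2-nt class. No line names a replicate, so the planned replicate-level test was not possible.

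Differences and ratios of the scores were computed with pandas 2.3.3. A ratio of 2 was the rule for a call; 8 hairpins with a score of 0 had no ratio. Hairpins were folded at 37 °C with ViennaRNA 2.7.2 (minimum free energy; the centroid and the trimmed precursor were alternatives). The cut was placed at the RefSeq mature 5′ end plus the listed offset, for 136 of 147 hairpins; where the mature sequence matched more than 1 time (4 copies of mir-941), the match nearest the 3′ end was taken. Functions were tested on simulated data. Hairpins named were the members, the 3 nearest to each, up to 4 per transition list by size of change, and, chosen after their values were seen, those around mir-429 in the order of ratios. Members and lists were chosen with earlier results of these data known.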

Additional observations from a re-analysis of the deposited data

How the results depend on the processing

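No paired analysis was possible because each hairpin has a single deposited score for each construct; leaving out replicates was not run for the same reason. The direction of each of the 4 members is the same as a difference and as a log2 ratio by construction, because both come from the same pair of scores. The median change of the members, 0.0243, was 0.0392 as a mean, and 0.0232 to 0.0254 with any 1 hairpin left out. With a difference of at least 0.05 as the rule, 1 member (mir-200b) was higher in place of 3, and 0 were lower in place of 1, since mir-429 changed by -0.0475. By that rule 68 of all 147 hairpins (46.3%) were higher and 17 (11.6%) lower. The share of all hairpins higher, 47.5% at a ratio of 2, was 62.6% at 1.5 and 32.4% at 3, and the share lower, 8.63%, was 13.7% at 1.5 and 3.60% at 3, because these are other thresholds. At a ratio of 3, 2 members were higher in place of 3, since mir-200c had 2.27. Among hairpins of the same 2-nt class, the share below mir-200a was 13.5% in place of 21.1% with DICER-WT and 17.6% in place of 26.5% with DICER-delHelicase, that below mir-200c with DICER-WT 17.6% in place of 25.9%, and that below mir-429 with DICER-delHelicase 13.5% in place of 19.7%. Pairs counted on the 3p strand alone, an alternative added after the data were seen, gave 81.4% of Yes hairpins with 2 pairs in place of 95.7%, and 4 and 5 pairs in place of 2 and 3 for mir-200b and mir-200c, whose bulges lie on the other strand. The centroid structure left the count of all 4 members as it was, and so did the trimmed precursor for the 3 members with a 5p entry. Of 71 alternative values, 58 kept their direction and stayed within the limits set for a match. The 58 include the log2 ratios of the 4 members, whose direction could not differ. The depth is unknown, so how well scores near 0 were resolved cannot be said, among them those of mir-200a and mir-200c with DICER-WT and of mir-429 with DICER-delHelicase.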
